A study of Mus musculus with 2 samples.

Results

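The miR-17 and miR-18 seed families are small groups of microRNAs (miRNAs) that share bases 2 to 8, the stretch that finds target mRNAs. Their 7 members with a row on the array were chosen by name: mmu-miR-17-5p, mmu-miR-20a-5p, mmu-miR-20b-5p, mmu-miR-93-5p, mmu-miR-106b-5p, mmu-miR-18a-5p and mmu-miR-18b-5p (the prefix, for mouse, is left out from here on), out of 1881 mouse miRNAs measured. The samples were exosomes, small vesicles shed by cells, collected from the medium of a mouse tumour cell line, Lewis lung carcinoma (LLC). Before collection the line was grown without serum for 24 h in the presence of 5 µM cisplatin, which is a DNA-crosslinking platinum compound used against tumours. The 2 samples, all of 1 group, stem from separate experiments per the study's design text, each on its own one-colour Agilent miRNA array, and no untreated sample was analysed here. The arrays therefore show which members gave a signal and how well it repeated, not what the drug changed.

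As background, the miR-17 family lowers cell-cycle inhibitors and death-promoting proteins such as Cdkn1a and Bcl2l11, and Myc activates the transcript that carries miR-17, miR-18a and miR-20a. This made the cluster known as an oncogenic one in lymphoma and lung cancer. The miR-18 family, cut from the same transcripts but with another seed, is known for lowering the matrix protein Ctgf.

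The mature sequences are shown because members that differ at few bases fell on opposite sides of the detection rule. They are from RefSeq (build GRCm38.p6), 5′ to 3′, with the seed (bases 2 to 8) in capitals, and all 7 members matched by name.
miR-17-5p: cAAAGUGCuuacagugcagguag
miR-20a-5p: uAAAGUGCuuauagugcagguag
miR-20b-5p: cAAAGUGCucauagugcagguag
miR-93-5p: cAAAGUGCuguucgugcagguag
miR-106b-5p: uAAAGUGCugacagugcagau
miR-18a-5p: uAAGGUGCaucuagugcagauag
miR-18b-5p: uAAGGUGCaucuagugcuguuag
The first 5 share the seed AAAGUGC, and the miR-18 pair shares AAGGUGC, so the families differ within the seed by A4G (base of miR-17-5p first, positions counted from the 5′ end). Compared without gaps from base 1, miR-17-5p and miR-20a-5p differed at 2 of 23 bases (C1U and C12U), and miR-17-5p and miR-20b-5p also at 2 (U10C and C12U). miR-18a-5p and miR-18b-5p differed at 2 of 23 bases, both near the 3′ end (A18U and A20U). miR-93-5p differed from miR-17-5p at 4 bases (U10G, A11U, C12U and A13C), and miR-106b-5p at 3 of its 21 (C1U, U10G and G20A).

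The members lie in 3 clusters of hairpins, each cut from a shared transcript. On the plus strand of chromosome 14 (chr14:115043671-115044506), 6 hairpins include those of miR-17-5p (chr14:115043684-115043706), miR-18a-5p (chr14:115043867-115043889) and miR-20a-5p (chr14:115044183-115044205). On the minus strand of chromosome X (chrX:52741693-52742567), another 6 include those of miR-18b-5p (chrX:52742381-52742403) and miR-20b-5p (chrX:52742159-52742181). On the minus strand of chromosome 5 (chr5:138165321-138165818), the 3 hairpins, with miR-106b-5p (chr5:138165787-138165807) and miR-93-5p (chr5:138165574-138165596), lie within Mcm7, which encodes a subunit of the replicative helicase (chr5:138164583-138172111).

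On both arrays 5 of the 7 members were detected, namely miR-20a-5p, miR-20b-5p, miR-93-5p, miR-106b-5p and miR-18a-5p. Over all 1881 miRNAs 10.7% were detected on both arrays. A miRNA was called detected where the scanner file flags it, which it did exactly when at least 1 of its probes had a summed signal over 3 times its error. The undetected members, miR-17-5p and miR-18b-5p, were detected on neither array, so the count was also 5 of 7 on array 1 alone (beside 16.6% of all miRNAs), on array 2 alone (10.7%) and on at least 1 array (16.6%). All 3 clusters had a detected member: 2 of 3 on chromosome 14, 1 of 2 on chromosome X and 2 of 2 on chromosome 5. Each member had 2 probes, apart from miR-18b-5p with 4, and the 16 probes gave 210 spots per array, of which 2 on array 1 and 6 on array 2 were left out as outliers.

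miR-20a-5p was the one member with clear signal at every probe on both arrays. The processed (background-subtracted) intensity of its brighter probe had a lowest, median and highest value of 153, 172 and 188 over 15 spots on array 1, and of 49.2, 55.5 and 66.2 over 15 spots on array 2. Its dimmer probe gave 58.3, 70.7 and 79.1 on array 1 and 15.7, 23.5 and 30.4 on array 2. All 30 spots were well above background on each array by the scanner's own flag, and at neither probe did the spot values of the arrays overlap. The probes differed by the same factor on both arrays, 2.44, and each was 3.01 times as bright on array 1 (standard error over spots 0.090 at the brighter probe and 0.16 at the dimmer). Spots of 1 array are technical repeats of 1 RNA sample, so these errors say nothing of the spread between experiments.

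miR-20b-5p, made from the X cluster and separated from miR-20a-5p by U1C and U10C (base of miR-20a-5p first), was detected on both arrays. Its brighter probe had a lowest, median and highest intensity of 33.6, 40.4 and 49.6 on array 1, against 5.16, 14.8 and 18.5 on array 2, with no overlap. Its dimmer probe averaged 14.6 ± 1.75 on array 1 and 4.16 ± 3.20 on array 2 (SD over 15 spots), and on array 2 only 1 of those 15 spots exceeded the limit set by the negative controls. That limit, the mean of 1000 negative-control spots plus 3 SD, was 7.55 on array 1 and 9.81 on array 2. The detection of miR-20b-5p on array 2 thus rested on 1 of its 2 probes, at 4.39 times its error.

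The chromosome 5 members, miR-106b-5p and miR-93-5p, were both detected, the second by 1 probe on each array. The brighter probe of miR-106b-5p had a lowest, median and highest intensity of 63.0, 69.9 and 75.3 on array 1 and of 14.6, 18.3 and 24.3 on array 2, with no overlap. Its dimmer probe averaged 18.2 ± 2.17 on array 1 and 4.61 ± 4.03 on array 2 (SD over 15 spots), where 2 of 15 spots exceeded the limit. For miR-93-5p the brighter probe gave 27.9, 35.3 and 40.5 over 14 spots on array 1 and 9.08, 12.8 and 16.4 over 14 spots on array 2. These ranges did not overlap either, but on array 2 only 2 of the 14 spots were well above background. The other miR-93-5p probe averaged 4.66 ± 2.13 on array 1 (SD, 15 spots) and -0.44 ± 1.64 on array 2 (SD, 14 spots), below the limit on both.

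In the miR-18 family the detected member was miR-18a-5p, from the chromosome 14 cluster. Its brighter probe had a lowest, median and highest intensity of 37.2, 45.1 and 53.6 on array 1 and of 4.65, 13.9 and 20.6 on array 2, with no overlap. Its dimmer probe averaged 10.6 ± 3.76 on array 1 and 2.80 ± 3.56 on array 2 (SD over 15 spots), with 10 and 1 of 15 spots above the limit. As with miR-20b-5p, the call on array 2 rested on the brighter probe, at 4.32 times its error.

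miR-17-5p, the member that names the family, gave no signal that could be told from background. Its probes averaged 2.20 ± 1.81 (SD, 14 spots) and -2.46 ± 2.78 (SD, 15 spots) on array 1, and -0.40 ± 2.26 and -2.28 ± 2.13 on array 2 (SD, 15 spots each). None of its spots exceeded the limit, 0 of 29 on array 1 and 0 of 30 on array 2, and its probes' signals were at most 0.78 times their error. Of the negative controls, 76.6% on array 1 and 26.3% on array 2 lay below the mean of its brighter probe. miR-20a-5p, 2 bases different and encoded on the same transcript, had all 30 spots above the limit on both arrays. Whether the probes pick up related members, and whether the probes for miR-17-5p respond to the miRNA, was not tested.

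miR-18b-5p likewise stayed at background. The means of its 4 probes ran between -0.41 and 4.53 on array 1 and between -2.59 and 0.95 on array 2. On array 1, 2 of its 30 spots exceeded the limit, and on array 2, 0 of 26. The highest probe reached 1.59 times its error on array 1 and the highest on array 2 0.33 times.

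**Figure D1:**
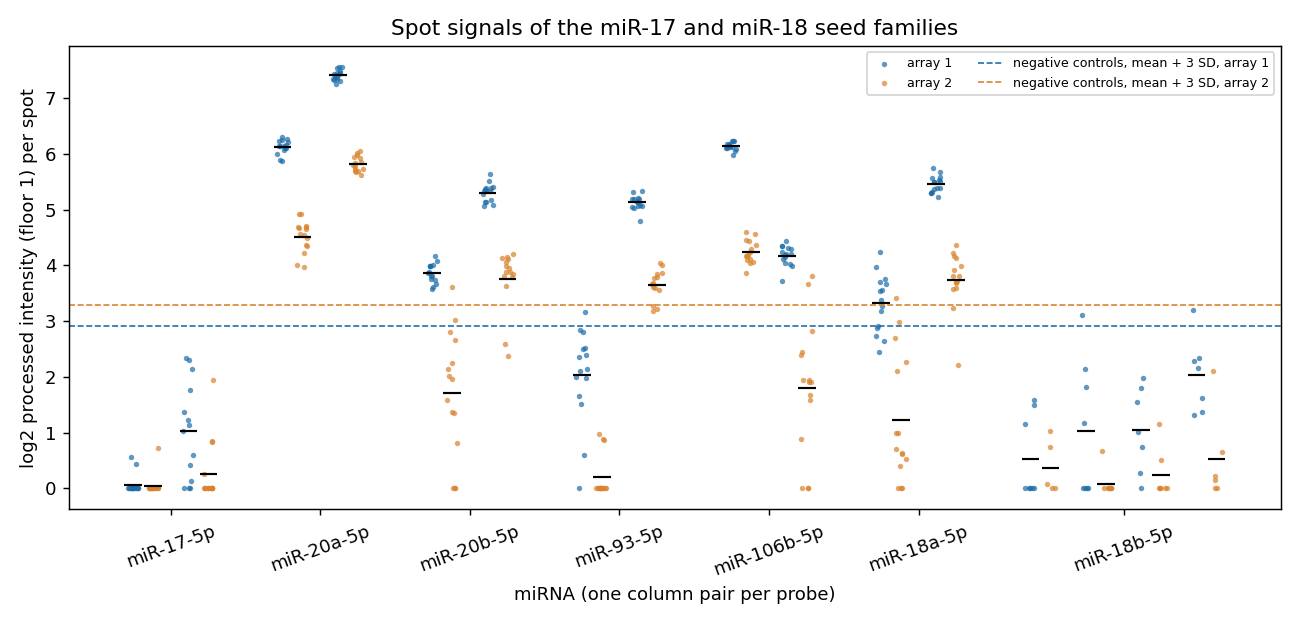
Each point is a spot, as log2 processed intensity floored at 1 (y axis), for each probe of the 7 members (x axis) on array 1 (blue) and array 2 (orange). Black bars are means over spots, and dashed lines are the negative-control mean plus 3 SD (intensities of 7.55 on array 1 and 9.81 on array 2). Both probes of miR-20a-5p stand above the lines on both arrays, and those of miR-17-5p below.

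On array 1, 4 of the 5 detected members were detected by both probes, and on array 2 only miR-20a-5p was, the other 4 by 1 probe each. Of the spots of these members, 115 of 149 were well above background on array 1 and 62 of 148 on array 2. Over the 16 member probes the mean raw intensity, before background subtraction, ran between 36.9 and 211 on array 1 and between 39.2 and 99.2 on array 2, while the local background was 29.0 to 32.2 and 30.7 to 34.2. A stricter rule therefore kept few of them. When the scanner's well-above-background flag was required at over 50% of spots on both arrays, only miR-20a-5p was left (1 of 7, against 4.68% of all miRNAs). When every probe had to exceed 3 times its error, it was again miR-20a-5p (1 of 7, against 6.17%). With a mean intensity above the negative-control limit on both arrays it was miR-20a-5p and miR-106b-5p (2 of 7, against 8.35%).

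Each of the 5 detected members had the brighter signal on array 1, with factors close to each other. As a member's level, log2 intensity was averaged over spots and then over probes. This unscaled level was 6.77 on array 1 and 5.17 on array 2 for miR-20a-5p, a difference of 1.60. The difference was 1.66 for miR-93-5p (3.58 and 1.92), 1.85 for miR-20b-5p (4.58 and 2.73) and 1.91 for miR-18a-5p (4.39 and 2.48). It was widest for miR-106b-5p, 2.13 (5.16 and 3.02). The median over the 5 was 1.85, against 0.75 over the other 196 miRNAs detected on both arrays. Of those 196, 49 (25%) differed by at least as much as miR-20a-5p, the lowest of the 5. With 2 arrays, no test was made of these differences.

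**Figure D2:**
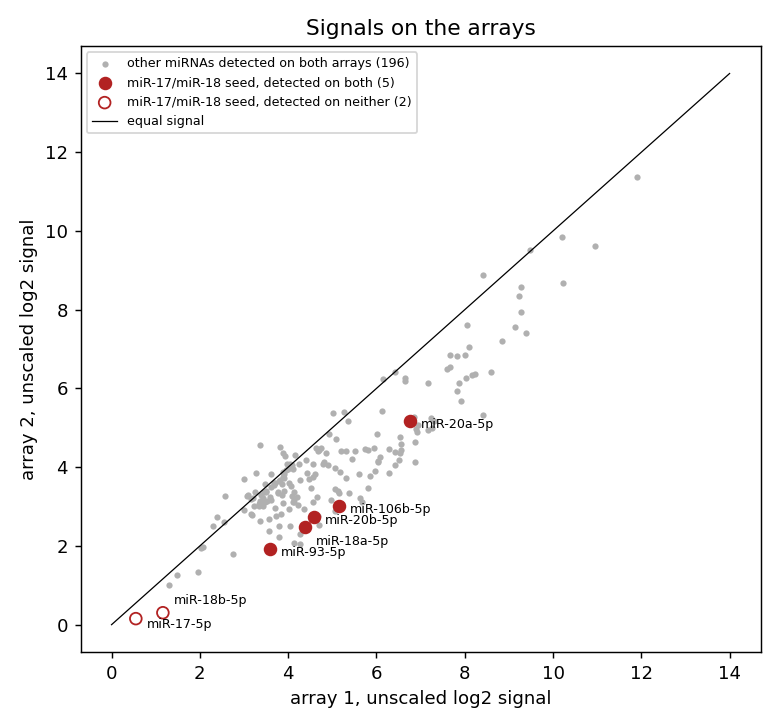
Unscaled log2 signal on array 1 (x axis) and array 2 (y axis) for miRNAs detected on both arrays (grey, 196 points; red, 5 members), with the undetected members as open circles and a line of equal signal. The 5 detected members lie below the line, by 1.60 to 2.13 log2 units.

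The same was seen on single probes, without the floor that holds dim spots at 0 on the log2 scale. Of the 16 member probes, 6 had means above the negative-control limit on both arrays, and their ratios of array 1 to array 2 ran between 2.75 and 3.68 with a median of 3.01. The ratio was 3.68 ± 0.15 for miR-106b-5p, 3.15 ± 0.24 for miR-18a-5p, 2.78 ± 0.21 for miR-20b-5p and 2.75 ± 0.15 for miR-93-5p (standard errors over spots). Over the 327 probes of all miRNAs above the limit on both arrays the median ratio was 1.63, with quartiles of 1.08 and 3.03. In that set, 28.7% of probes had a ratio at or above the lowest of the members. The 4 detected spike-in controls were brighter on array 1 by 0.06 to 0.17 log2 units. Another 5 control names detected on both arrays (hur_1, hur_2, hur_4, hur_6 and mr_1) were brighter on array 1 by 0.75 to 2.78. Fewer vesicles in a sample and less of these miRNAs per vesicle cannot be told apart here, and technical causes of the difference were not tested.

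After each array was scaled to its 75th percentile (taken over miRNAs that both arrays detected), which removed 1.71 log2 units, the members repeated closely. Their scaled log2 levels were 5.97 ± 0.08 for miR-20a-5p, 3.66 ± 0.10 for miR-20b-5p and 2.75 ± 0.04 for miR-93-5p (SD, n = 2). For miR-106b-5p the level was 4.09 ± 0.30 and for miR-18a-5p 3.44 ± 0.14. Over all miRNAs detected on both arrays the median SD was 0.67, and the members' SDs ran up to 0.30. The members' unscaled differences of 1.60 to 2.13 lie near the 1.71 that this scaling takes away, so their small SDs depend on it: without scaling the SD was 1.17 for miR-93-5p and 1.51 for miR-106b-5p. Over all miRNAs detected on both arrays the median difference was 0.78 before scaling and -0.93 after it, so the 0.67 depends on the scaling too. The members' smaller SDs are thus no sign that they repeat better than other miRNAs. Signals of different miRNAs come from different probes and do not rank them by amount.

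**Figure D3:**
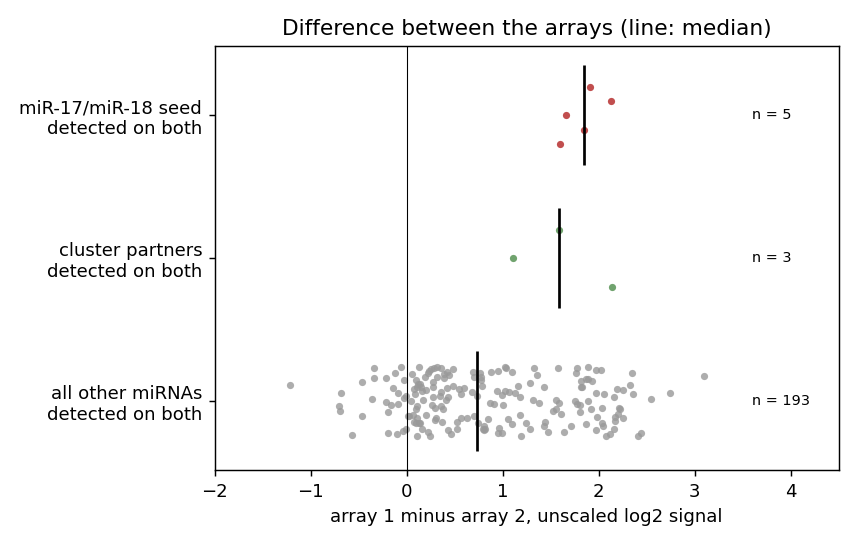
Array 1 minus array 2 in unscaled log2 signal (x axis) for the 5 detected members, the 3 detected partners from the same clusters and all other miRNAs detected on both arrays. Each point is a miRNA and black lines are medians (1.85 for the members). The members lie between 1.60 and 2.13.

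The other miRNAs of the same clusters offer a comparison within the transcripts. The list held 21 names, 20 of them on the array, and 3 were detected on both arrays (beside 10.7% of all miRNAs): miR-19b-3p and miR-92a-3p, each encoded on both chromosome 14 and chromosome X, and miR-25-3p of chromosome 5. Each has another seed, in capitals again, so a shared transcript and not shared target pairing links them to the members.
miR-19b-3p: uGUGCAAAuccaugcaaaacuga
miR-92a-3p: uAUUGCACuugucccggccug
miR-25-3p: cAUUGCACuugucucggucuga
The brighter probe of miR-19b-3p had a lowest, median and highest intensity of 263, 284 and 316 on array 1 and of 57.6, 76.2 and 84.8 on array 2. These partners were also brighter on array 1, by 2.13 (miR-19b-3p), 1.59 (miR-25-3p) and 1.11 (miR-92a-3p) log2 units, a median of 1.59. For miR-19a-3p the flag was set on array 1 alone (4.55 and 2.10), and for miR-363-3p, the last of the X cluster, on neither array (0.52 and 0.54). miR-106a-5p, which has the seed AAAGUGC and differs from miR-17-5p by U10A alone, was not among the names on the array.

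The arms opposite the members in their own hairpins are the 7 3p arms. Of these, 0 were detected on both arrays (beside 10.7% of all miRNAs), 1 on array 1 only and 6 on neither, so 1 of 7 was detected on at least 1 array (beside 16.6%). The 6 had unscaled log2 levels between 0.15 and 2.45. The exception was miR-17-3p, with levels of 2.11 and 0.65. The other 8 opposite arms on the list, from partner hairpins and that of miR-106a, were detected on neither array. The hairpin of miR-17 is shown because, among the member hairpins, it is the one with an undetected member and a 3p arm flagged on an array. The mature arms are in capitals, the 5p arm first.
mir-17 hairpin: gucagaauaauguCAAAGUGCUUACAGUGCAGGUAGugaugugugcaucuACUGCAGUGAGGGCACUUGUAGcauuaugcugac
The call for miR-17-3p rested on 1 of its 2 probes at 3.41 times its error, just over the limit of 3, with an intensity of 10.2 ± 3.25 on array 1 and 2.13 ± 2.80 on array 2 (SD, 15 and 14 spots). By the rule of 6 times the error, the probe would not have passed.

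**Figure D4:**
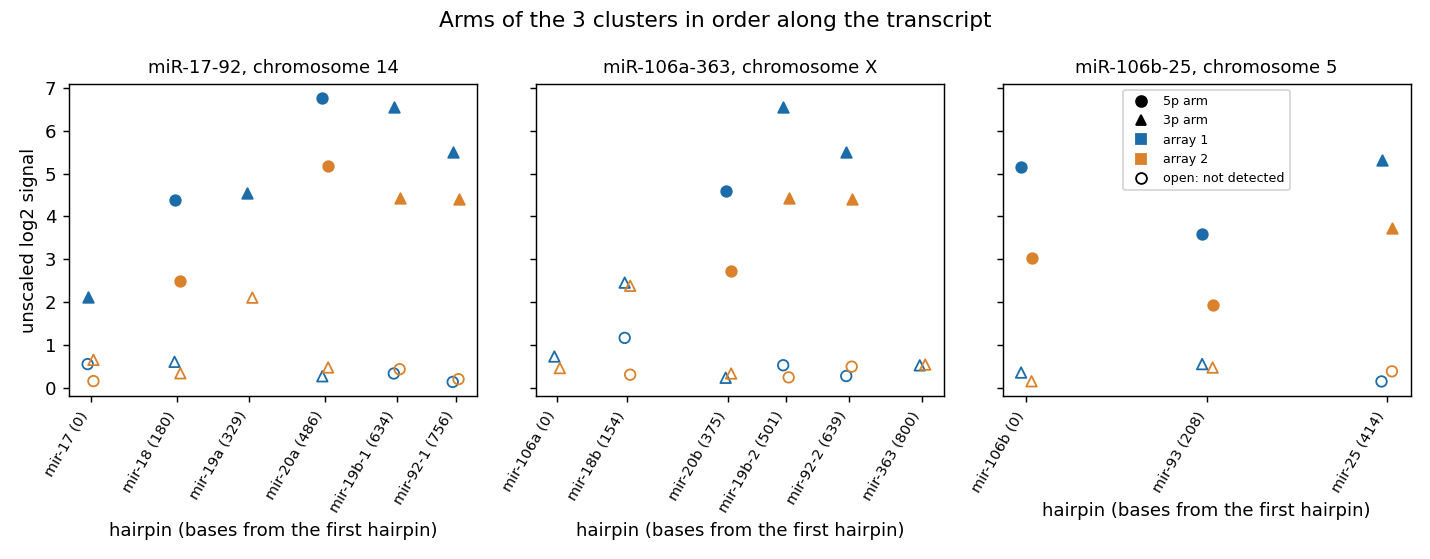
Unscaled log2 signal (y axis) of the arms of each cluster that have a reference sequence and a row on the array, placed at the distance of their hairpin from the first hairpin in bases (x axis), on array 1 (blue) and array 2 (orange). Circles are 5p arms, triangles 3p arms and open symbols undetected. In the first hairpin of the chromosome 14 cluster the 5p arm was open on both arrays (0.55 and 0.15), while that of mir-20a, 486 bases on, was filled on both.

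Beyond the members, the seed AAAGUGC was found at bases 2 to 8 of 1 other miRNA on the array, miR-6383, among the 1608 array names with a RefSeq mature sequence. It was detected on neither array (0.09 and 0.17).
miR-6383: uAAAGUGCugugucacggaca
It matches miR-20a-5p at only 9 of 21 bases, mainly within the seed, and shares none of the clusters. The seed AAGGUGC was found in no array name other than the miR-18 pair.

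The 5 miRNAs nearest to the detected members in pattern were miR-669e-5p, miR-103-3p, miR-7048-5p, miR-1904 and miR-8102. Likeness was the distance, over the unscaled log2 levels of both arrays, to the members' medians of 4.58 on array 1 and 2.73 on array 2, among 196 candidates. The distance was 0.10 for miR-669e-5p (4.68 and 2.76) and 0.22 for miR-103-3p (4.70 and 2.54), and it reached 0.47 for miR-8102 (4.22 and 3.04). With 2 arrays, such likeness says little more than that the brightness was similar.

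The scanner files also give a total signal for each miRNA, and this total differed from the member's own probes for 3 of the members. For miR-93-5p it was 40.9 on array 1 and 23.4 on array 2, whereas its own detected probe summed to 7.44 and 2.70. The excess, 33.5 and 20.7, equalled the listed total of miR-92a-3p, the detected name just before it in alphabetical order. On array 2 the same held for miR-20b-5p, listed at 19.999 with an own sum of 3.03 and an excess of 17.0, the total of miR-20a-5p. It held there for miR-18a-5p too, listed at 7.59 with an own sum of 2.98 and an excess of 4.61, the total of miR-1897-5p. The listed totals of miR-20a-5p and miR-106b-5p equalled their own sums on both arrays. In the authors' deposited table, miR-93-5p stands at 2.45 and 2.08 and miR-20a-5p at 4.65 and 4.74 on the log2 scale, while miR-17-5p and miR-18b-5p have its lowest value, -3.32, on both arrays.

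The totals also touch the detection calls. When a listed total over 6 times its error was required on both arrays, 4 of 7 members passed (beside 7.92% of all miRNAs), and miR-106b-5p failed with 5.49 on array 2. Among those that passed, miR-20b-5p, miR-93-5p and miR-18a-5p had listed totals on array 2 that included the total of another name. When each miRNA's own detected probes were summed, a rule added after seeing the data, only miR-20a-5p passed (1 of 7, beside 6.22%). By their own detected probes on array 2, miR-20b-5p reached 4.39, miR-18a-5p 4.32 and miR-93-5p 4.01 times the error.

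Whole-array facts were these. Each array held 58594 spots, 56430 of them for miRNAs, with none saturated; 312 miRNAs were detected on array 1 and 202 on array 2. Of 15 miRNAs that mark other cell types, 2 were detected on both arrays (beside 10.7% of all miRNAs). Both were among the 4 of the stromal list (miR-199a-3p and miR-214-3p). The other stromal ones, miR-143-3p and miR-145a-5p, were detected on neither array. Of the 3 leukocyte markers, miR-142a-3p was flagged on array 1 alone, and miR-223-3p and miR-150-5p on neither array. The endothelial marker miR-126a-3p and the hepatocyte marker miR-122-5p were also detected on neither. The 3 epithelial markers (miR-200b-3p, miR-200c-3p and miR-205-5p) were detected on neither array, and so were the 3 red cell ones. The part of other cells in the members' signals was not tested.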

How the data were processed

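Exosome RNA of 2 samples in 1 group was measured on one-colour (Cy3) Agilent arrays, which shared a slide and a scan, per the file headers. The labels' protocols name a cRNA labelling kit and the headers a miRNA scan protocol, and which labelling was used is not known. The deposited intensities were extracted, per the submitters' processing notes, with Agilent Feature Extraction (version 10.7.1.1) and are background-subtracted with spatial detrending per the file headers, not normalized between arrays. The authors' deposited table holds log2 values with unknown centring, and both columns share one set of values, so it was only an alternative.

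Population-outlier spots were left out, and intensities under 1 were set to 1 before log2. Each array's 75th percentile over miRNAs detected on both arrays (6.29 and 4.58) was subtracted and their mean added back. The precision is limited by the number of arrays. No test was possible with 1 group, and no p-values were computed. Members and lists were chosen with earlier results of these data known. The text names all members, cluster partners detected on an array, miRNAs sharing a seed and the 5 nearest in pattern. Some others (miR-363-3p, the embryonic miRNAs) were named after their values were seen. Sequences are from RefSeq, GRCm38.p6. The calculations used Python 3.11.15, numpy 2.4.6, pandas 2.3.3, matplotlib 3.10.9, R 4.3.3 and limma 3.58.1 (normexp only), and were tested on simulated arrays of 1881 miRNAs.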

Additional observations from a re-analysis of the deposited data

How the results depend on the processing

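Of 7 members, the number detected on both arrays was 5 (beside 10.7% of all miRNAs). It was 1 with the majority of spots well above background (4.68%) and 2 with a mean intensity above the negative-control limit (8.35%). With own detected probes over 6 times their error it was 1 (6.22%), and 1 with every probe over 3 times its error (6.17%). The last pair was added after seeing the data. Leaving out either array gave 5 (beside 10.7% without array 1 and 16.6% without array 2). Of 20 cluster partners, 3 were detected (beside 10.7%). The number was 0 with the majority of spots well above background (4.68%), 0 with every probe over 3 times its error (6.17%) and 5 with detection on at least 1 array (16.6%). Leaving out an array gave 3 to 5, the 5 without array 2 (16.6%). The members' median difference, array 1 minus array 2, was 0.14 after scaling. It was 1.51 with the percentile over all miRNAs, 1.85 without scaling, 1.01 with quantile normalization and 0.81 in the authors' deposited table. For normexp it was -0.37. Over all detected miRNAs the same medians were -0.93 after scaling, 0.44, 0.78, -0.23, -0.27 and -0.52. The members' median was thus above that of all in each of these settings. The main scaling, the percentile over all miRNAs and no scaling shift every miRNA of an array alike. The gap between the medians is therefore the same in them by design, and they do not count as separate support. Of 50 alternative levels of single members, 26 moved by over 1 SD between the arrays. Every member moved with normexp, the brightest probe, the sum of detected probes, the authors' deposited table and without array 2. Normexp, the brightest probe, the sum of detected probes and the authors' deposited table put the level on another scale. Leaving out array 2 shifted the scaled array 1 level of every detected member by the same amount. A move in any of these settings therefore says little about the members. The percentile over all miRNAs and no scaling keep the mean level by design and could not move it. The cause of the other changes was not tested, beyond what each setting removes or keeps. Low signal over background limits every member other than miR-20a-5p on array 2. No paired analysis was possible because there was only 1 group.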

Other observations

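A related seed, moved by a base, is known from embryonic stem cell miRNAs such as the miR-290 and miR-302 families. The letters AAGUGC, which stand at bases 3 to 8 of the miR-17 family, were searched at bases 2 to 7 of the 1608 array names with a sequence, on the miRNA strand only, and found in 8 (0.50%). They overlap the seed AAAGUGC by all 6 letters. The search was chosen after the data were seen. Of the 8, 1 was detected on both arrays (12.5%, beside 10.7% of all miRNAs). It was miR-290a-3p, with unscaled log2 levels of 3.25 on array 1 and 3.36 on array 2. The detected members were brighter on array 1 by 1.60 to 2.13, which miR-290a-3p was not. The other 7 were miR-291a-3p, miR-291b-3p, miR-294-3p, miR-295-3p, miR-302b-3p, miR-302d-3p and miR-350-5p, detected on neither array. The detected one is shown beside an undetected one, with bases 2 to 8 in capitals.
miR-290a-3p: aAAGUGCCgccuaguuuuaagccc
miR-302b-3p: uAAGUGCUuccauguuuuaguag

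The probes of miR-17-5p have numbers of 8 digits in the array design, those of the other 6 members numbers of 4 digits. Among miRNAs with registry numbers under 1000, 15 of 281 with probe numbers of 8 digits were detected on both arrays (5.34%), and 72 of 538 with 4 digits (13.4%). At registry numbers of 1000 or above, 113 of 1061 with 8 digits were detected (10.7%, the same as over all miRNAs), and the 1 with 4 digits was too. The lower share at 8 digits was seen under 1000, and with only 1 miRNA of 4 digits at 1000 or above the formats could not be compared there. No label or header says what the number formats mean, and their part in the missing signal of miR-17-5p was not tested.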
